A study of Homo sapiens with 6 samples.

Results

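Insulin-like growth factor (IGF) binding proteins, IGF receptors and the receptor adaptor IRS1 were examined as a set of 10 genes chosen by symbol, out of 61806 genes in the table. The set holds IGFBP1 to IGFBP7, IGF1R, IGF2R and IRS1, and it was proposed with the response of these genes in these samples already known, so that their values are given below as a description with no p-value. The samples were 3 control samples and 3 samples treated with Parishin B (PB), a phenolic glucoside of the orchid Gastrodia elata that was studied as a blocker of the binding between the pseudokinase TRIB3 and AKT1. All 6 were labelled as MDA-MB-231, an established human line of triple-negative breast cancer with a mesenchymal character, with no genetic change named for either group. In a check of sample identity, however, 3 of the 6 libraries, which formed the whole control group, held RNA that this line should lack. An effect of PB and a difference between the cells that the groups held therefore cannot be told apart in the values below. A level said below to rise or fall was higher or lower in the PB samples than in the control samples. PB was given at 20 μM for 24 h, and the vehicle of the control group is not given in the sources used here. Nothing says that the 3 samples of a group came from separate cultures, so the errors and p-values measure the spread between these samples, which may be technical.

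IGF1 and IGF2 are secreted growth factors that act mainly through IGF1R, a receptor tyrosine kinase that signals through adaptors such as IRS1 to PI3K and AKT. The binding proteins hold the ligands outside the cell, where they can withhold them from the receptor or carry them to it, and proteases that cut the binding proteins release the ligand. IGF2R has no kinase domain, clears IGF2 from the cell surface and carries lysosomal enzymes tagged with mannose 6-phosphate.

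Promoter sequence was available from RefSeq (GRCh38.p14) for 8 of the 10 genes, in 10 windows that run from 250 to 11 bases before an annotated start. The following windows are shown because IGFBP3 and IGFBP4 were the abundant binding protein genes that were lower with PB, and IGF2R, added after its values were seen, was the member with the highest fold change. Capitals mark TATATA in IGFBP3, TATAAA in IGFBP4 and CACGTG in IGF2R. Each is written 5′ to 3′ on the strand of its gene.
IGFBP3, chr7:45921283-45921522, minus strand: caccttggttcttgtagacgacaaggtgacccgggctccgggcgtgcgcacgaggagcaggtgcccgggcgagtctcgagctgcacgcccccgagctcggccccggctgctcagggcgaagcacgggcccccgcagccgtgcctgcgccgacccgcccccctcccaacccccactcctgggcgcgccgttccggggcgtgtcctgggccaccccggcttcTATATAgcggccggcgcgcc
IGFBP4, chr17:40443200-40443439, plus strand: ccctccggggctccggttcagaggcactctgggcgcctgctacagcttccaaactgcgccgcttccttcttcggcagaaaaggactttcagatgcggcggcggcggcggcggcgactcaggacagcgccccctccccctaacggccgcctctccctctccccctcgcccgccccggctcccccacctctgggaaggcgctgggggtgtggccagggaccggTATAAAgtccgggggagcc
IGF2R, chr6:159968832-159969071, plus strand: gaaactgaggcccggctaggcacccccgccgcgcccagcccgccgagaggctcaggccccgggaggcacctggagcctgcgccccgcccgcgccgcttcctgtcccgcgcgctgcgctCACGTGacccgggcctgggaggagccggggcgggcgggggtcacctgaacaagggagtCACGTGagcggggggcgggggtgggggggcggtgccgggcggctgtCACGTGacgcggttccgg
The marked TATATA began 30 bases before the start of IGFBP3 and the marked TATAAA 29 bases before the start of IGFBP4, and neither motif occurred in the windows of the other 6 genes. Over all 35116 RefSeq windows of this length, searched on both strands, 10.6% held TATAAA and 3.70% held TATATA. The IGF2R window held CACGTG, the core of an E-box, at 132, 74 and 28 bases before the start. CACGTG was found in 6.01% of all windows, and 27 of them (0.0769%) held it at least 3 times. GGGCGG, an SP1-type motif, occurred 6 times in the IGF2R window and at least once in 41.4% of all windows. TGATGNAA, an ATF4-type motif, was in no member's window and in 3.03% of all windows, and TGANTCA, an AP-1-type motif, was in no member's window and in 6.43% of all windows. The FOXO-type TGTTTAC was found in the window of IGFBP6, 186 bases before its start, and in 2.85% of all windows. The GC content was 75.0% for IGFBP3, 70.8% for IGFBP4 and 78.8% for IGF2R, against a median of 57.9% over all windows. These matches describe the letters of the windows and not the binding of a factor.

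Poly(A) RNA was sequenced on an Illumina instrument, and the total count per sample lay between 15681655 and 21986948, where 3 counts correspond to 0.136 to 0.191 CPM, the count scaled to a fixed library size. A group with at most 3 counts in every sample is called at the detection floor, which covers counting error only. FPKM is the count relative to the length of the gene's exons and to the total count of the sample, so FPKM levels can be compared between genes. Fold changes come from edgeR's quasi-likelihood model on the raw counts after TMM scaling, fitted to the 24200 genes whose FPKM averaged 0.1 or more. Differentially expressed genes (DEGs) passed both an adjusted p line (Benjamini-Hochberg, 0.05 or less) and a fold line, set at 1 on the log2 scale, up or down. Of the tested genes 1629 were lower and 1296 were higher with PB by these lines, and library size alone in place of TMM gave 1336 lower and 1809 higher. The median of the log2 fold changes over the tested genes was 0.011 with TMM and 0.14 with library size alone. In bulk RNA, a loss of one kind of cell and a fall of RNA per cell cannot be told apart.

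Among the binding protein genes, IGFBP1, IGFBP3, IGFBP4 and IGFBP7 were far lower in every PB sample than in any control sample. IGFBP2 was lower by less, IGFBP6 overlapped between the groups, and IGFBP5 was hardly detected in either. Of the 10 genes 9 were tested, and 4 passed the DEG lines, all lower with PB, where 6.73% of all tested genes were lower and 5.36% higher by the same lines (12.1% together). By adjusted p alone 6 were lower and 1 was higher, against 26.1% and 24.1% of all tested genes (50.2% together). The median log2 fold change was -0.92 over the 9 tested genes and -3.99 over the 6 tested binding protein genes, against 0.011 over all tested genes. Because this contrast was known when the set was proposed, nothing is read from these counts.

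**Figure D1:**
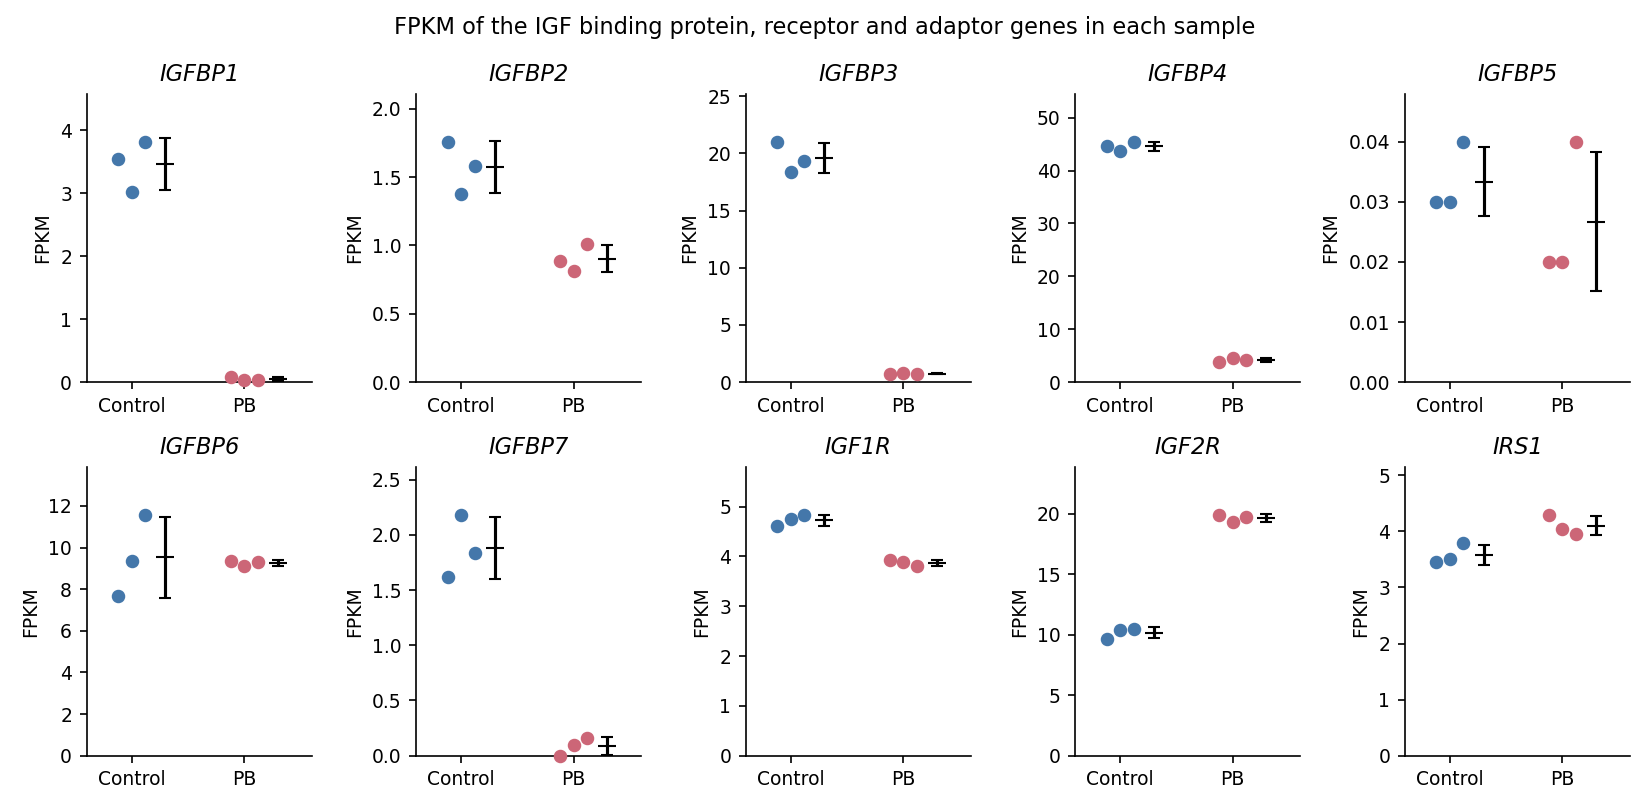
FPKM of each of the 10 genes in the 3 control (blue) and 3 PB (red) samples, with the group mean and SD as a black bar beside the points and a separate linear axis from 0 in each panel. IGFBP1, IGFBP3, IGFBP4 and IGFBP7 lie near 0 with PB, IGF2R lies between 19.3 and 19.9 with PB and between 9.62 and 10.4 in the controls, and IGFBP5 and IGFBP6 overlap between the groups.

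IGFBP4, a binding protein that mostly restrains IGF action and is cut by the protease PAPP-A, was the most abundant member in control cells. It lies on chromosome 17 from 40443450 to 40457725 (hg38, plus strand). Its FPKM was 44.6, 43.7 and 45.5 in the control samples and 3.88, 4.48 and 4.16 in the PB samples, from 1604, 1651 and 2204 counts and from 136, 155 and 174 counts. The 3 control samples lay close together, the 3 PB samples did too, and the groups were far apart. The log2 fold change was -3.55 (standard error 0.0743), a level 11.7-fold lower with PB. IGFBP3, the main carrier of IGFs in blood and the second most abundant member here, showed a still larger difference. It lies on chromosome 7 from 45912245 to 45921874 on the minus strand. IGFBP3 had 21.0, 18.4 and 19.4 FPKM in the control samples and 0.74, 0.81 and 0.72 FPKM in the PB samples. Its counts were 1567, 1439 and 1945 without PB and 54, 58 and 62 with it, so that no PB sample came near a control sample. The log2 fold change was -4.83 (standard error 0.115), or 28.4-fold lower, and its 95% interval of -5.05 to -4.60 did not overlap that of IGFBP4, which ran from -3.70 to -3.40.

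IGFBP1, the binding protein that liver and decidua secrete and that insulin represses, was nearly absent in the PB samples. It is the direct neighbour of IGFBP3, with 18584 bases and no gene between them, and lies on chromosome 7 from 45888360 to 45893660 on the plus strand. Its control samples held 95, 85 and 138 counts and its PB samples 2, 1 and 1, which is the detection floor. In FPKM these were 3.55, 3.02 and 3.82 against 0.08, 0.04 and 0.03. The ratio of the pooled control rate to the pooled PB rate was 72.5, with an exact 95% interval of 28.0 to 268 that covers counting error only. The fitted log2 fold change was -6.18 (standard error 0.73), a value that depends on the few counts with PB. IGFBP7, a related protein that binds IGFs weakly and is deposited around blood vessels, had 51, 72 and 78 counts in the control samples and 0, 3 and 6 in the PB samples. It lies on chromosome 4 from 57030773 to 57110385 on the minus strand. Its FPKM was 1.62, 2.18 and 1.84 without PB and 0.00, 0.10 and 0.16 with it, so every PB sample was far below every control sample. The ratio of pooled rates was 20.4 (exact 95% interval 10.5 to 45.2), and the fitted log2 fold change was -4.43 (standard error 0.505). Leaving out PB replicate 1, the sample at 0, gave -3.90, and leaving out PB replicate 3 gave -5.28. The end of IGFBP7 overlaps POLR2B, a gene on the opposite strand with 10691 counts over the control samples and 8600 over the PB samples, and whether the counting used strand is not given in the sources used here.

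IGFBP2, which binds IGF2 with some preference and is abundant in many tumours, was lower by a smaller amount. It lies on chromosome 2 from 216632828 to 216664436 on the plus strand. IGFBP2 had 1.76, 1.38 and 1.58 FPKM in the control samples and 0.89, 0.81 and 1.01 FPKM in the PB samples, from 136, 112 and 165 counts and from 67, 60 and 91 counts. The groups did not overlap. The log2 fold change of -0.92 (standard error 0.141, 95% interval -1.20 to -0.65) fell short of the DEG fold line, and the line was passed without control replicate 2 (-1.01) or without PB replicate 3 (-1.02). IGFBP5, its neighbour 7668 bases away with no gene between, is on the minus strand of chromosome 2 from 216672105 to 216695549. It had 3, 3 and 5 counts in the control samples and 2, 2 and 5 in the PB samples, or at most 0.04 FPKM, and it was not tested. A difference in IGFBP5 was not detectable at this depth.

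IGFBP6, which prefers IGF2 over IGF1, was the binding protein gene whose level stayed within the range of the control group. It lies on chromosome 12 from 53097436 to 53102345 on the plus strand. The control samples had 7.65, 9.37 and 11.6 FPKM and the PB samples 9.35, 9.10 and 9.33 FPKM. All 3 PB samples thus lay inside the control range. The log2 fold change was -0.19 (standard error 0.0939, 95% interval -0.38 to -0.010), and it was -0.061 with library size alone. It was -0.015 without control replicate 3 and -0.32 without control replicate 1, the latter past the adjusted p line. The control counts of 168, 216 and 342 scattered more than counting error, with a chi-square of 20.2 on 2 degrees of freedom, where the PB counts of 200, 192 and 238 gave 0.0951.

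**Figure D2:**
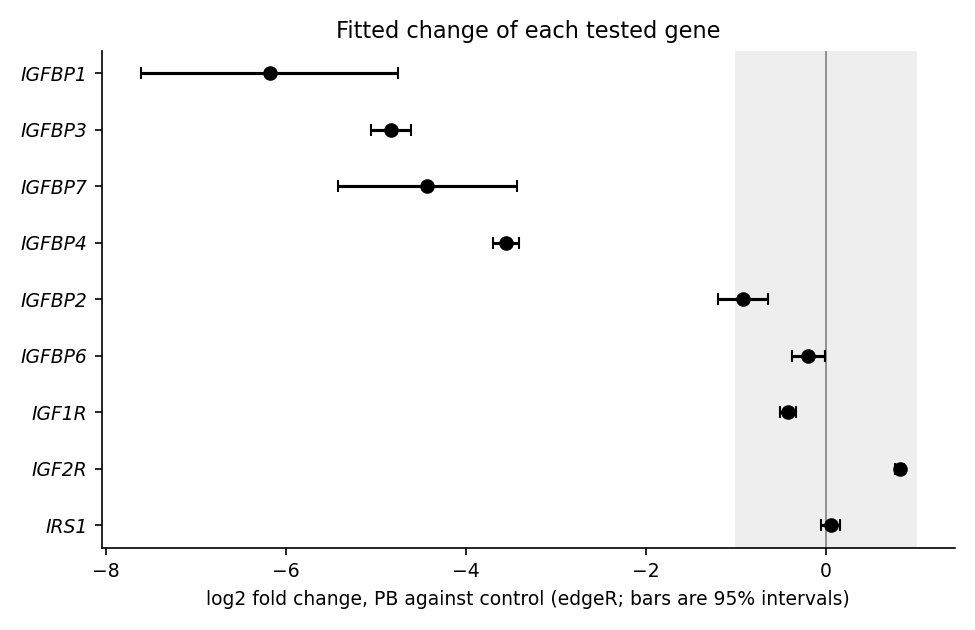
Fitted log2 fold change, PB against control, of the 9 tested genes with 95% intervals from edgeR, and the range inside the DEG fold lines in grey. IGFBP1, IGFBP3, IGFBP7 and IGFBP4 lie between -6.18 and -3.55, and IGFBP2, IGFBP6, IGF1R, IGF2R and IRS1 lie inside the grey range.

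The binding protein mRNA therefore differed in amount and in make-up. The summed FPKM of IGFBP1 to IGFBP7 was 80.2, 78.1 and 83.7 in the control samples and 15.0, 15.4 and 15.5 in the PB samples, with means of 80.7 ± 2.82 and 15.3 ± 0.261 (SD, n = 3). IGFBP4 made up 55.3% ± 0.889 of this sum in the control group and 27.3% ± 1.69 with PB. IGFBP3 made up 24.3% ± 1.66 and 4.96% ± 0.305. IGFBP6, whose own level overlapped between the groups, made up 11.8% ± 2.14 of the control sum and 60.7% ± 1.67 of the PB sum. The share of IGFBP2 was 1.95% ± 0.216 and 5.92% ± 0.636, although its FPKM was lower with PB. IGFBP1 made up 4.29% ± 0.37 in the control group and 0.33% ± 0.181 with PB, and IGFBP7 2.34% ± 0.403 and 0.564% ± 0.525. These shares are of mRNA per length and carry no measure of protein.

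**Figure D3:**
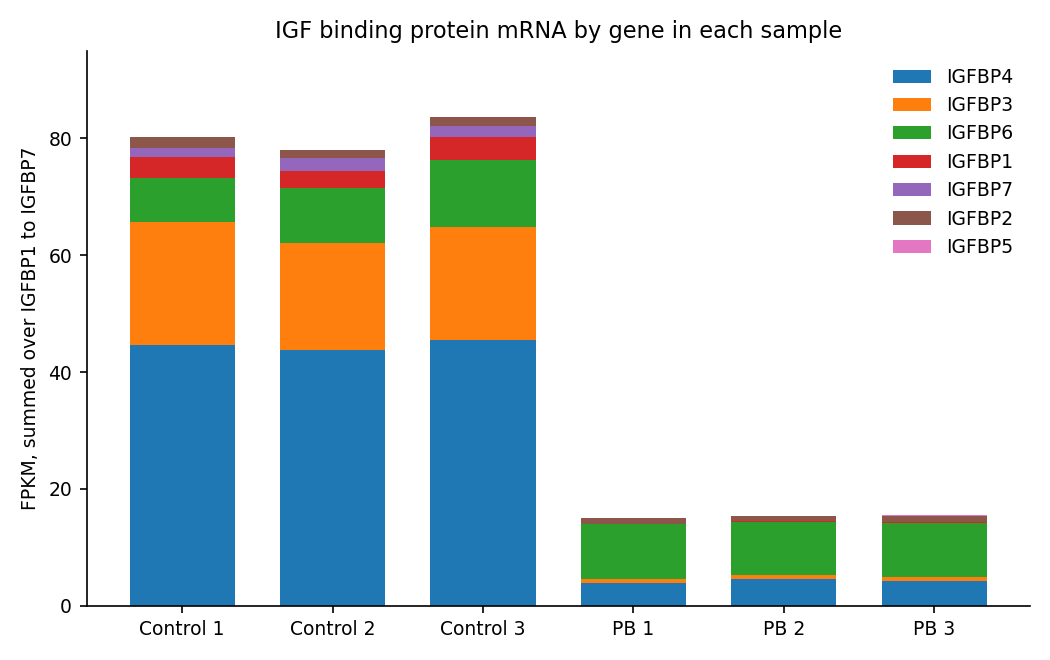
Stacked FPKM of IGFBP1 to IGFBP7 in each of the 6 samples, one bar per sample and one colour per gene. The control bars reach 78.1 to 83.7 FPKM and consist mostly of IGFBP4 and IGFBP3, and the PB bars reach 15.0 to 15.5 FPKM and consist mostly of IGFBP6.

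The receptor genes moved in opposite directions and by less than the fold line. IGF1R, the signalling receptor, lies on chromosome 15 from 98648539 to 98964530 on the plus strand. It had 4.61, 4.75 and 4.83 FPKM in the control samples and 3.93, 3.89 and 3.81 FPKM in the PB samples, from 1049, 1134 and 1479 counts and from 870, 851 and 1007 counts. Every PB sample was lower than every control sample, with a log2 fold change of -0.42 (standard error 0.0445). IGF2R, the clearance and sorting receptor, lies on chromosome 6 from 159969082 to 160113507 on the plus strand. Its control samples had 9.62, 10.4 and 10.4 FPKM and its PB samples 19.9, 19.3 and 19.8 FPKM, from 3550, 4021 and 5189 counts and from 7141, 6838 and 8468 counts. The groups were well apart and the log2 fold change was 0.82 (standard error 0.0258), 1.76-fold higher with PB. With library size alone it was 0.95, still under the fold line. The ratio of IGF2R to IGF1R FPKM was 2.09, 2.19 and 2.16 in the control samples and 5.06, 4.96 and 5.19 in the PB samples, and each PB ratio was above each control ratio.

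IRS1, the adaptor that links IGF1R and the insulin receptor to PI3K, lies on chromosome 2 from 226731312 to 226799820 on the minus strand. Its FPKM was 3.45, 3.51 and 3.79 in the control samples and 4.29, 4.05 and 3.96 in the PB samples, from 564, 602 and 835 counts and from 682, 636 and 752 counts. FPKM was higher in each PB sample than in each control sample, but the fit with TMM scaling gave a log2 fold change of 0.053 (standard error 0.054, 95% interval -0.053 to 0.16). With library size alone the value was 0.19 and passed the adjusted p line, as it also did in both limma fits to the FPKM values. In FPKM, IRS1 and IGF2R were thus higher without overlap, which held for 34.1% of all tested genes, and IGFBP1, IGFBP2, IGFBP3, IGFBP4, IGFBP7 and IGF1R were lower without overlap, which held for 21.6%.

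The order of the FPKM levels differed between the groups. In control cells IGFBP4 came first with 44.6 ± 0.875 FPKM (SD, n = 3), followed by IGFBP3 with 19.6 ± 1.33, IGF2R with 10.2 ± 0.457 and IGFBP6 with 9.53 ± 1.96. The ranges of IGF2R and IGFBP6 overlapped. Below them were IGF1R with 4.73 ± 0.111, then IRS1 with 3.58 ± 0.182 and IGFBP1 with 3.46 ± 0.407, which overlapped, then IGFBP7 with 1.88 ± 0.282 and IGFBP2 with 1.57 ± 0.190, which also overlapped, and last IGFBP5. In PB-treated cells IGF2R came first with 19.6 ± 0.318 FPKM (SD, n = 3), followed by IGFBP6 with 9.26 ± 0.139. IGFBP4 with 4.17 ± 0.300 overlapped both IRS1 with 4.10 ± 0.171 and IGF1R with 3.88 ± 0.0611, while IRS1 and IGF1R did not overlap each other. IGFBP2 with 0.903 ± 0.101 overlapped IGFBP3 with 0.757 ± 0.0473. IGFBP7, IGFBP1 and IGFBP5 came last with overlapping ranges, all at or below 0.16 FPKM.

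Large falls were counted over all genes with enough counts in the control group. Of the 13699 genes that reached 30 counts in each of the control samples, 211 (1.54%) had a mean CPM lower by 10-fold or more with PB, among them IGFBP1, IGFBP3, IGFBP4 and IGFBP7 of the 9 members with such counts. Of the same genes 113 (0.825%) had at most 3 counts in every PB sample, and IGFBP1 was the member among them. The genes were selected by counts in the control group, where these members were high. The fall of the members was known when the set was proposed, so nothing is read from these shares. The opposite pattern, at most 3 counts in every control sample and at least 30 in every PB sample, was seen in 1 gene. Its share of the genes counted with PB was not computed, and rises of 10-fold were not counted.

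**Figure D4:**
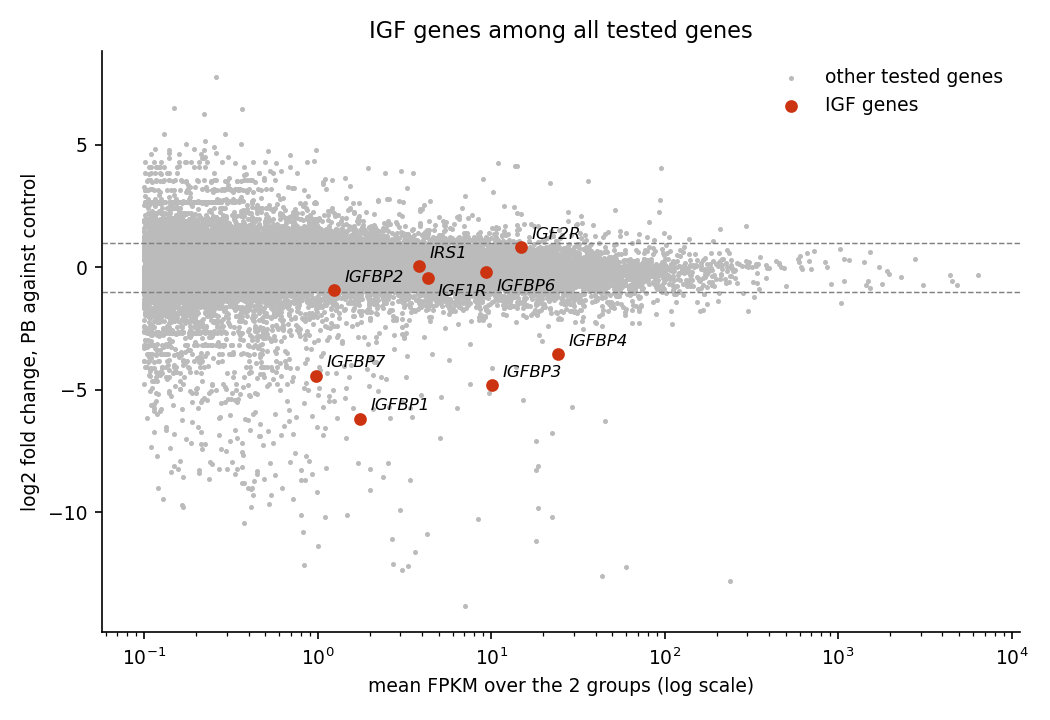
Fitted log2 fold change, PB against control, against the mean FPKM over both groups (log axis) for the 24200 tested genes in grey and the 9 tested IGF genes in red, with the DEG fold lines dashed. IGFBP1, IGFBP3, IGFBP4 and IGFBP7 lie between -6.18 and -3.55, below most genes of a similar level, and IGF2R lies at 0.82.

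Another 66 genes of the IGF axis were listed by role, with earlier results of these data known, and 56 were tested. Past the DEG lines 4 were higher and 8 were lower, beside 12.1% of all tested genes in either direction. The median log2 fold change of the 56 was -0.07. By adjusted p alone 20 rose, 26 fell and 10 did not pass, beside 50.2% of all tested genes that passed. With library size alone 24 rose, 19 fell and 13 did not pass, and the sign turned for 6 genes, among them PTPN1, AKT2 and M6PR, which had passed as lower. PAPPA, PAPPA2, ADAM12, ADAM28, IRS2, CCN5 and the genes without a DEG call named below, other than INSR and those at the floor, were picked once their values had been seen.

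The ligands themselves were scarcely measured. IGF1 had 0 counts in each control sample and 2, 3 and 1 in the PB samples, INS had 0 in all 6 samples, and the insulin receptor-related receptor INSRR had at most 3 in any sample. IGF2 had 6, 3 and 4 counts in the control samples and 10, 20 and 20 in the PB samples, a level below the expression filter. Without that filter its log2 fold change was 1.91 (standard error 0.5, edgeR adjusted p = 0.000128). INSR, the insulin receptor, rose from 1.18 ± 0.0265 to 1.62 ± 0.102 FPKM (SD, n = 3), and its fitted log2 value was 0.32 (standard error 0.0861, edgeR adjusted p = 5.04e-04). The remaining tested genes of the list, IGF2BP1, IGF2BP2 and IGF2BP3, encode RNA-binding proteins and fell by 0.40, 0.17 and 0.17 on the log2 scale. With library size alone IGF2BP2 and IGF2BP3 no longer passed the adjusted p line, at -0.040 and -0.037.

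Of 12 genes for proteases, protease inhibitors and carriers of the binding proteins, 10 were tested and all 10 passed the adjusted p line, 5 higher and 5 lower, a line that 50.2% of all tested genes passed. STC2, which encodes a secreted inhibitor of PAPP-A, had 6.42, 6.75 and 6.46 FPKM in the control samples and 25.0, 24.4 and 24.4 FPKM in the PB samples. It rose 3.43-fold, with a log2 fold change of 1.78 (standard error 0.0452). STC1, a second inhibitor of PAPP-A, rose by 0.68 on the log2 scale (standard error 0.0427). PAPPA, which encodes PAPP-A, fell from 228, 310 and 308 counts to 47, 52 and 32, a log2 fold change of -2.69 (standard error 0.148). PAPPA2, whose product cuts IGFBP3 and IGFBP5, went the other way, from 2, 3 and 7 counts to 95, 74 and 72, a log2 fold change of 4.30 (standard error 0.44), though its mean stayed at 0.443 FPKM with PB. MMP7, a secreted metalloprotease, had 95, 85 and 89 counts in the control samples and 1, 0 and 1 with PB, a ratio of pooled rates of 123 (exact 95% interval 33.6 to 1020). The metalloprotease genes ADAM12 and ADAM28 were below 0.4 FPKM in all samples, with log2 fold changes of -3.47 and 1.04. The serine protease KLK3 was at the floor in both groups.

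Of 11 other adaptors and regulators of the receptor, 10 were tested, and 3 of them fell past the DEG lines, beside 6.73% of all tested genes. GRB10, an adaptor that restrains insulin and IGF1 receptor signalling, had 109, 111 and 180 counts in the control samples and 1, 0 and 0 with PB. The ratio of pooled rates was 365 (exact 95% interval 65.1 to 14400). GRB14, a related inhibitory adaptor, fell from 4.78 ± 0.272 to 2.28 ± 0.381 FPKM (SD, n = 3), and its fitted log2 value was -1.21 (standard error 0.109, edgeR adjusted p = 2.43e-29). IRS2, the close relative of IRS1, fell from 0.657 ± 0.0808 to 0.320 ± 0.0520 FPKM (SD, n = 3), and its fitted log2 value was -1.18 (standard error 0.172), and IRS4 had at most 5 counts in any sample.

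Downstream, none of the 14 genes for PI3K subunits, AKT kinases, phosphatases and FOXO factors passed the fold line, while 6 rose and 4 fell by adjusted p, or 8 and 2 with library size alone. With TMM, 24.1% of all tested genes rose and 26.1% fell by adjusted p, and 12.1% were DEGs. AKT1, the kinase that TRIB3 binds, had a log2 fold change of -0.17 (standard error 0.0285), and FOXO3, a transcription factor that AKT holds inactive, had 0.55 (standard error 0.0377). The 10 genes of lysosomal sorting, the other task of IGF2R, were all tested and none passed the fold line. By adjusted p 4 of them rose and 3 fell, with M6PR, the second mannose 6-phosphate receptor, at -0.095 (standard error 0.0329) and GNPTAB, which makes the sorting tag, at 0.29 (standard error 0.0417). With library size alone 5 rose and 2 fell, and M6PR was at 0.038 and did not pass. The log2 fold changes of this list lay between -0.45 and 0.38, beside 0.82 for IGF2R.

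The last list held 12 genes for proteins that share the IGFBP domain, 9 of which were tested. HTRA1 was in this list and in that of the proteases. CCN1, a matrix protein, fell from 71.2 ± 1.79 to 28.7 ± 0.810 FPKM (SD, n = 3), and its fitted log2 value was -1.45 (standard error 0.0311). CCN3 rose from 1.15 ± 0.361 to 2.60 ± 0.214 FPKM (SD, n = 3), and its fitted log2 value was 1.08 (standard error 0.159, edgeR adjusted p = 1.93e-11). CCN5, at 34, 31 and 53 counts in the control samples and 2, 2 and 6 with PB, was the other that fell past the DEG lines. CCN4, ESM1 and HTRA3 were at the floor in both groups.

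**Figure D5:**
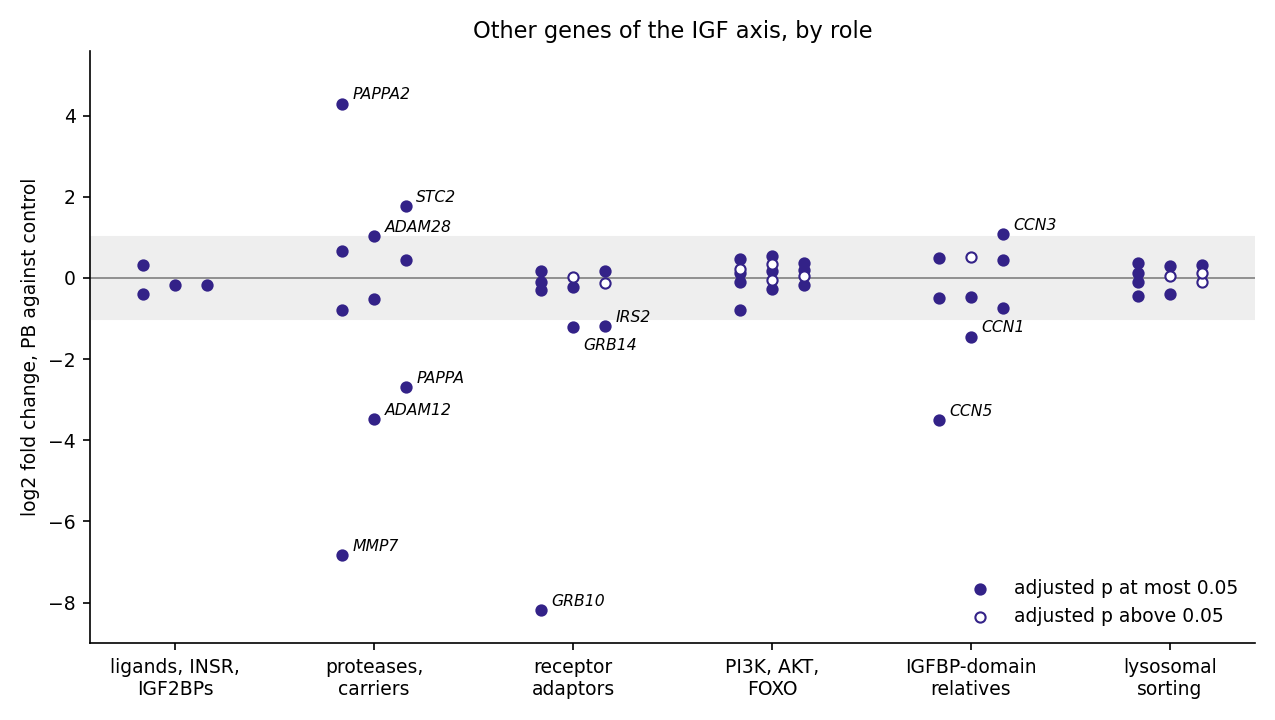
Fitted log2 fold change, PB against control, of the tested genes in 6 lists of the IGF axis, one column per list, with filled points for an adjusted p of at most 0.05 and open points above it. Points outside the grey band are named DEGs, and the positions of MMP7 and GRB10, which were at the floor with PB, depend on few counts.

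Several epithelial genes were lower with PB too, though not all of those listed. ESR1, PGR and ERBB2, listed as low in this line, had means of 0.073, 0.05 and 2.95 FPKM in the control group. With PB these were 0.147, 0.07 and 3.59 FPKM, and the log2 fold change of ESR1 was 0.90 (standard error 0.274). The mesenchymal markers listed for the line were present in both groups, which was not a test of identity. Their summed FPKM over 10 genes was 1103 to 1129 in the control samples and 1013 to 1017 with PB. Most of that sum was VIM, with means of 603 and 635 FPKM, whose log2 fold change was -0.059 with TMM and 0.075 with library size alone. By adjusted p 9 of the 10 were lower with PB (median -0.57 on the log2 scale), beside 26.1% of all tested genes. FN1 (-1.46), CAV1 (-1.16) and TGFBI (-1.50) were lower past the DEG lines, beside 6.73% of all tested genes. Of 20 epithelial markers 13 were tested, and 9 of them were lower and 1 was higher past the DEG lines. Of all tested genes 6.73% were lower and 5.36% higher by these lines. The summed FPKM of all 20 was 455.0 to 461.1 in the control samples and 160.8 to 166.2 with PB. KRT8 and KRT18, keratins that this line also makes, held most of it, with means of 107.3 and 285.5 FPKM in the control group and 38.9 and 120.6 FPKM with PB. Without them the sum of the other 18 was 65.3 to 67.2 in the control samples and 3.83 to 4.30 with PB. Most of this control sum came from KRT7, whose mean FPKM was 44.5 without PB and 0.44 with it. ESRP1, picked once its values had been seen, was the gene that rose past the DEG lines, by 1.63 on the log2 scale (standard error 0.179). KRT19, CLDN3 and CLDN4 were tested and did not pass the adjusted p line, and 6 of the 20 genes were at the floor in both groups. CDH1, which encodes E-cadherin, had 428, 387 and 522 counts in the control samples and 2, 0 and 2 with PB, and ELF3, an epithelial transcription factor, had 215, 267 and 309 and then 1, 0 and 0. AGR2 and CEACAM6 had at least 249 and 343 counts in every control sample and 0 in every PB sample. The part of the epithelial genes in the difference of the binding protein genes was not tested.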

How the data were processed

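RNA-seq of 6 samples labelled as MDA-MB-231 was analysed, 3 per group by label. The authors deposited a raw count per gene and sample, and they also deposited FPKM values, of which 100% lay within 0.0051 of the value recomputed from the count, the exon length and the library total. The submitters' processing notes name hg38, HTSeq 0.6.1, Cufflinks 2.2.1 and DESeq2, and the aligner and strandedness are not given in the sources used here. Overlapping genes are therefore uncertain. The number of sample columns that matched no sample was 0, and 20417 genes had no symbol.

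The quasi-likelihood test of edgeR 4.0.16 (R 4.3.3) was run after TMM scaling on the counts of 24200 genes (mean FPKM 0.1 or more), with adjustment over all of them. The study used DESeq2, run here as version 1.42.0. Ratios of pooled rates used total counts and exact 95% intervals. Sequences came from RefSeq. The procedure was tested on simulated data. Identity was checked by counting libraries with genes that the labelled line should lack.

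The 10 members and all gene lists were chosen with earlier results of these data known. Other genes were named if they were DEGs of a list with a mean FPKM of at least 1 or at the floor, with IGF1, IGF2 and INSR added. Alternatives were no filter, a filter at 1 FPKM, library size alone, DESeq2, limma 3.58.1 on log2(FPKM + 0.1) and log2(FPKM + 1), other DEG lines, the replicate number as a block, and each sample left out in turn.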

Additional observations from a re-analysis of the deposited data

How the results depend on the processing

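The fitted log2 fold changes of the 9 tested members kept their direction in all 116 alternative fits that gave a value, and 114 stayed on the same side of the DEG lines. The other 2 were those of IGFBP2 without control replicate 2 or without PB replicate 3, given above. IGFBP7 had no value with a filter at a mean FPKM of 1, where 3 members were DEGs. Without the fold line 7 members passed in place of 4, 46 other genes of the IGF axis in place of 12, and 12151 of all tested genes in place of 2925. With the fold line at a log2 value of 2 the axis count was 6 and the count of all genes 886. With the filter at 1 FPKM these were 5 and 1377, and with limma on log2(FPKM + 1) they were 3 and 825. DESeq2 gave 2499 DEGs over all genes and no filter gave 3308. With a sample left out, 4 to 5 members, 11 to 12 axis genes and 2790 to 2869 of all tested genes were DEGs.

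The replicate numbers did not pair the samples, since the deviations of same-numbered samples correlated at -0.048, 0.039 and -0.033. With the replicate number as a block, 4 members, 12 axis genes and 2753 genes in all were DEGs. Not every sample correlated best with its own number.

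Depth limits IGFBP1 and IGFBP7, whose folds rest on at most 6 counts per PB sample, and IGFBP5, IGF1 and IGF2, which had at most 20 counts in any sample.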

Other observations

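By the root mean square difference over the 6 samples of log2(FPKM + 0.1) values centred on the control mean, the gene nearest to IGFBP1 among 13532 genes was its chromosomal neighbour IGFBP3, at 0.177. DAPK1, which encodes a death-associated kinase, followed at 0.208 and GABRA5, a GABA receptor subunit, at 0.222. DAPK1 and GABRA5 were listed at 0 in every PB sample, and with an added 0.1 FPKM such likeness rests partly on the added value, since the fitted log2 fold changes of IGFBP1 and IGFBP3 were -6.18 and -4.83. For IGF2R the nearest genes were FRG1HP, a pseudogene that may share reads with its relatives, at 0.010, LONP1, the mitochondrial protease, at 0.026 and FRA10AC1 at 0.030. Their log2 fold changes were 0.82, 0.82 and 0.80.

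The balance between related receptors and adaptors also differed between the groups. The ratio of IGF1R to INSR FPKM was 3.87, 4.13 and 4.03 in the control samples and 2.46, 2.25 and 2.49 with PB. The ratio of IRS1 to IRS2 FPKM was 5.15, 6.16 and 5.19 in the control samples and 11.3, 14.0 and 13.7 with PB. Neither ratio overlapped between the groups, and the second rests on 37 to 131 counts of IRS2 per sample.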
